A study of Mus musculus with 8 samples.

Results

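The 8 genes described here, Eomes, Neurog1, Neurog2, Insm1, Neurod1, Neurod4, Btg2 and Gadd45g, were chosen by name as genes of intermediate progenitors and proneural factors, and all 8 had a row among the 23284 gene symbols of the count files. All 8 also passed the filter on low counts that left 14696 genes to test. Polyadenylated RNA of C57BL/6 mouse cortex at embryonic stage E15.5 was sequenced in 4 libraries labelled WT and 4 labelled ErbB4 KO, whose genotype is given as ErbB4 -/-. ErbB4 is a receptor tyrosine kinase, and the comparison asks which cortical transcripts differ when it is lost. In the study, ErbB4 null mice carry a transgene that expresses ErbB4 in the heart under the α-MHC promoter, which keeps them alive, and both lines were bred as separate homozygous colonies, so that litter and line cannot be told apart from genotype. The meninges and the ganglionic eminences were dissected away, and the tissue is a mixture of all cells of the dorsal cortex.

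The dorsal cortex makes its excitatory neurons in a sequence of cell states. Radial glia at the ventricle express Pax6, and the proneural factors Neurog1 and Neurog2 commit their daughters to the neuronal lineage while raising Notch ligands on the cell surface. Many daughters become intermediate progenitors, which lie basal to the ventricular zone, express Eomes and divide to give neurons. Insm1 promotes the formation of these basal progenitors, Neurod1 and Neurod4 act in differentiating cells, and Btg2 and Gadd45g are linked to withdrawal from the cell cycle.

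The libraries held 28205703 to 48871480 counts. Erbb4 itself had 8.99 to 25.3 CPM (counts per 1000000 counts of the library, scaled by edgeR's TMM factors) in WT libraries and 20.7 to 24.6 in those labelled ErbB4 KO, so that the targeted gene was not lower under that label, and every direction below is that of the labels. The counts do not show which exons were read. Xist, made in female cells, had 983 to 1687 CPM in WT replicates 1 to 3 and 2.70 to 3.82 in the other 5 libraries, where the Y-linked Ddx3y had 76.4 to 80.9. WT replicate 1 also stood apart in a trend with transcript length. Over 14253 genes, Spearman's rho between transcript length and a library's deviation from the mean of the rest was -0.58 in WT replicate 1 and 0.038 to 0.22 in the other 7. The deposited files of ErbB4 KO replicates 1 and 2 carry numbers from another range than those of the other 6 libraries, and the labels do not say what the numbers mark. Results below are given with and without these libraries where they matter.

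Promoter sequences are shown for the 3 genes with the lowest p-values, Neurog2, Neurog1 and Gadd45g, and for Eomes, the defining gene of intermediate progenitors, because the levels of these 4 genes moved together from library to library. RefSeq windows (GRCm38.p6) were given for 7 of the 8 genes, all but Insm1. The 250 bases before each start site matched the mm9 genome (NCBIM37) at 1 place each, and the coordinates are those of mm9. The sequences run 5′ to 3′ on the strand of the gene, and capitals mark any match, on either strand, to the E-boxes CAGCTG, of many helix-loop-helix factors, CAGATG, of proneural factors, and CACGTG, of Myc and related factors, to TGGGAA, the core of the site of the Notch effector RBPJ, to the CCAAT box, to the octamer ATTTGCAT of POU factors or to the TATA box, searched as TATAAA.
Neurog2, chr3:127335804-127336053 (+ strand): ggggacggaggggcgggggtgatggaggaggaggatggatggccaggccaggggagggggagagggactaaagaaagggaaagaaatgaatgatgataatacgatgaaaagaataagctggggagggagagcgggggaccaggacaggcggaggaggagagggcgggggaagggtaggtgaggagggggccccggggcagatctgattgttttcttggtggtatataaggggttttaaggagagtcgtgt
Neurog1, chr13:56353542-56353791 (- strand): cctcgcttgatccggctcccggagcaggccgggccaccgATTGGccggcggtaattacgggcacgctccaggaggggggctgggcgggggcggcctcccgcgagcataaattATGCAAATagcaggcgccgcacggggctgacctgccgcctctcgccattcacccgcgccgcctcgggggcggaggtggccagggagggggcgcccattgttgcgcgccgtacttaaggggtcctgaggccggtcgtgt
Gadd45g, chr13:51941794-51942043 (+ strand): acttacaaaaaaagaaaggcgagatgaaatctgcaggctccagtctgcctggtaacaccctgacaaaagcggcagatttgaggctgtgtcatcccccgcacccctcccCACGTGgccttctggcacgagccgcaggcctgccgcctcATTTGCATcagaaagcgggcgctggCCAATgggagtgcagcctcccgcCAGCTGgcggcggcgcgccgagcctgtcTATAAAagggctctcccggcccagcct
Eomes, chr9:118387057-118387306 (+ strand): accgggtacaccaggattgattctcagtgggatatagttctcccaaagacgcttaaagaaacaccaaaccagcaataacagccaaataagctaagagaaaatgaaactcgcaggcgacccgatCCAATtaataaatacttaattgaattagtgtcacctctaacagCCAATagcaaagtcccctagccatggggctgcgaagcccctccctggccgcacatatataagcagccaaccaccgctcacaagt

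Of the 3 E-boxes searched, matches lay in the window of Gadd45g and in no other of the 7. CAGCTG occurred in 1 of the 7 genes, Gadd45g, starting 55 bases before the start site, and in 13% of all 32851 windows of this length. CAGATG occurred in 0 of the 7 genes and in 14.4% of all windows. Gadd45g and Neurog1 each held the octamer, starting 103 and 138 bases before the start site, and 1.6% of all windows hold it. The window of Gadd45g also held CACGTG, which 6.02% of all windows hold, TATAAA (12.4%) and a CCAAT box (33.8%). CCAAT was the most widespread of the 7 motifs, found in Eomes, Neurog1, Btg2 and Gadd45g, whereas TGGGAA was found in Btg2 (21.6% of all windows). In Btg2 its match overlapped one to CCAAT. No match to any of the 7 motifs lay in the windows of Neurog2, Neurod1 or Neurod4, which says only that these letters are not in these 250 bases. The sequence TATATAA, close to TATAAA, was not searched, and it can be read in the windows of Neurog2, Neurod1 and Eomes. The octamer was added to the list after the sequences had been read.

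None of the 8 genes passed an adjusted p of 0.05 in edgeR's quasi-likelihood test of ErbB4 KO against WT, in which 4 of the 14696 genes, or 0.0272%, did. DESeq2 and limma-voom also called 0 of the 8. The values nearest to a difference were those of the proneural factors and of Gadd45g. At an unadjusted p under 0.05, 3 of the 8 genes were found, all lower under the KO label, where 2.52% of all tested genes were lower and 5.53% differed in either direction. The log2 fold change was below 0 in 6 of the 8 genes, against 50.8% of all tested genes, and its median was -0.14 against -0.0022. In 0 of the 8 genes did the libraries of the genotypes lie on separate sides, which 3.34% of all tested genes showed. Without ErbB4 KO replicates 1 and 2, 0 of the 8 genes had an unadjusted p under 0.05 and 4 were below 0. With 2 KO-labelled libraries left, the share of all tested genes at an unadjusted p under 0.05 was also lower, 2.18%.

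**Figure D1:**
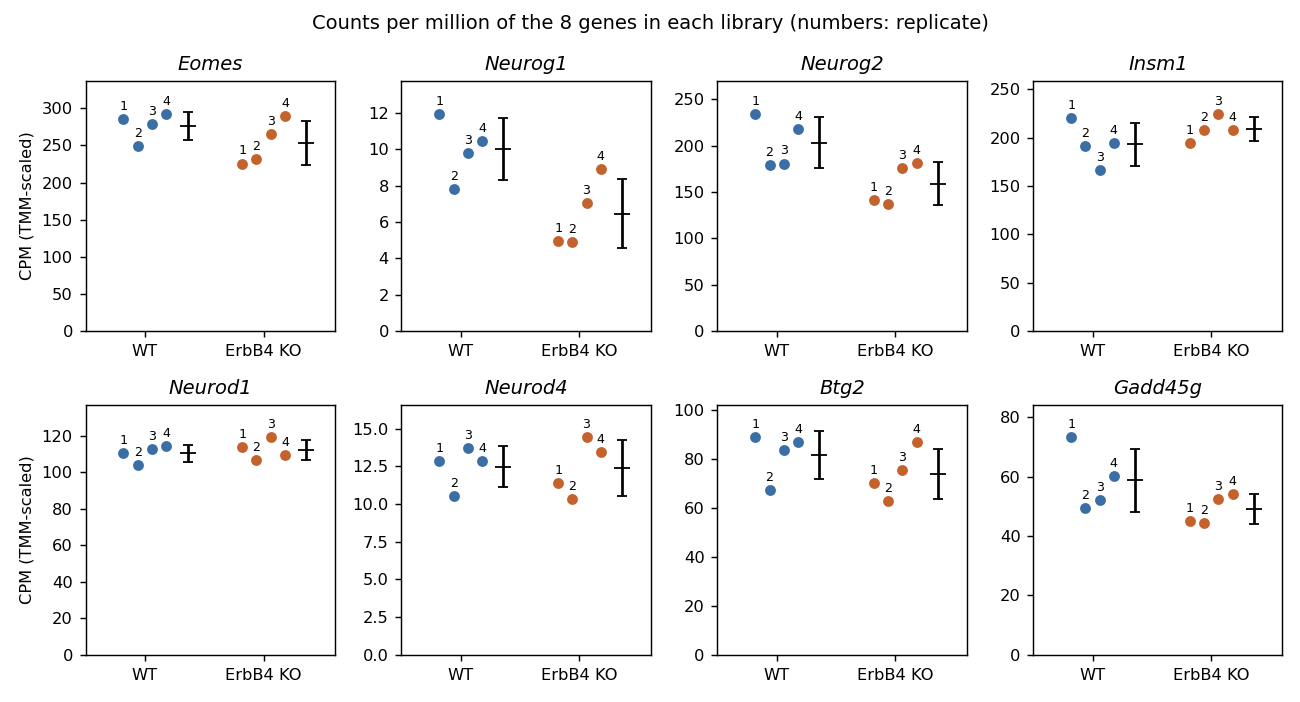
CPM, scaled by TMM, of each of the 8 genes in the 8 libraries. Points are single libraries with their replicate number, and the bars to the right of each group give its mean and SD (n = 4). The genotypes overlap in every panel, and ErbB4 KO replicates 1 and 2 are the lowest libraries for Eomes, Neurog1, Neurog2 and Gadd45g.

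Neurog1 and Neurog2 are basic helix-loop-helix proteins that act as heterodimers with E proteins and switch on neuronal genes. Neurog1 (ENSMUSG00000048904, minus strand of chromosome 13, 56351866 to 56353524, 1 exon) had 11.9, 7.83, 9.80 and 10.5 CPM in WT replicates 1 to 4, from 244 to 376 reads. In ErbB4 KO replicates 1 to 4 it had 4.97, 4.91, 7.02 and 8.89 CPM, from 171 to 280 reads. ErbB4 KO replicates 1 to 3 lay below every WT library, and replicate 4 lay within the WT range. Neurog1 averaged 10.01 ± 1.71 CPM in WT and 6.45 ± 1.90 in KO-labelled libraries (n = 4 each, here and below with the SD). The log2 fold change, -0.64 with an SE of 0.19, was the lowest of the 8 genes, and its 95% interval ran from -1.06 to -0.22. The adjusted p was 0.81 and the unadjusted p 0.00659. The exact two-sided permutation test of log2 CPM over the 70 assignments of libraries gave p = 0.0571, where 0.0286 is the smallest possible.

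Neurog2 (ENSMUSG00000027967, plus strand of chromosome 3, 127336054 to 127338549, 2 exons) is the main proneural factor of the dorsal cortex. It had 234, 179, 181 and 218 CPM in WT replicates 1 to 4. In ErbB4 KO replicates 1 to 4 it had 142, 137, 176 and 181 CPM. The highest KO-labelled library exceeded WT replicates 2 and 3 by little, and the other 3 KO-labelled libraries lay below the WT range. It averaged 203 ± 27.6 CPM in WT and 159 ± 23.0 in KO-labelled libraries (n = 4 each), and the log2 fold change was -0.35 with an SE of 0.11 and a 95% interval from -0.60 to -0.11. The adjusted p was 0.81, the unadjusted p was 0.00864, and the exact permutation test gave p = 0.0857.

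For both proneural factors the unadjusted p stayed under 0.05 in 18 of the 19 alternative settings, and the adjusted p reached 0.23 at the lowest for Neurog1 and 0.38 for Neurog2. The exception was the setting without ErbB4 KO replicates 1 and 2. There the log2 fold change of Neurog1 was -0.33 (SE 0.18, unadjusted p = 0.0967) and that of Neurog2 was -0.18 (SE 0.12, unadjusted p = 0.149). Without ErbB4 KO replicate 4 the log2 fold changes were -0.83 and -0.43, the lowest with 1 library left out, and without WT replicate 1 they were -0.55 and -0.28. Set against WT replicate 4 alone, the WT library with low Xist, they were -0.70 (SE 0.30) and -0.46 (SE 0.15), with the spread taken from the KO-labelled libraries.

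Gadd45g (ENSMUSG00000021453, plus strand of chromosome 13, 51942047 to 51943837, 3 or 4 exons by transcript) encodes a small growth arrest protein found in newly committed cells. Its CPM values were 73.2, 49.3, 52.3 and 60.3 in WT replicates 1 to 4. Those of ErbB4 KO replicates 1 to 4 were 45.1, 44.2, 52.5 and 54.3. WT replicate 1 was far above the other libraries, and the KO-labelled replicates 3 and 4 lay among WT replicates 2 to 4. Its averages of 58.8 ± 10.7 CPM in WT and 49.0 ± 5.10 in KO-labelled libraries (n = 4 each) correspond to a log2 fold change of -0.26 with an SE of 0.12. The adjusted p was 0.81, the unadjusted p 0.0484 and the exact permutation p 0.171. Its longest transcript of 1071 nucleotides is longer than those of only 6.35% of the tested genes, and WT replicate 1 is the library in which short transcripts were high. Without WT replicate 1 the log2 fold change was -0.14 (unadjusted p = 0.136), and after subtraction of the length trend from every library it was -0.17 (unadjusted p = 0.0618). It was -0.14 without ErbB4 KO replicates 1 and 2, -0.34 without WT replicate 2 and -0.30 against WT replicate 4 alone, with unadjusted p of 0.363, 0.0151 and 0.0293. Subtraction of the length trend left Neurog1 at -0.58 and Neurog2 at -0.32, with unadjusted p of 0.00757 and 0.00702. The part of transcript length in these differences was not tested.

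**Figure D2:**
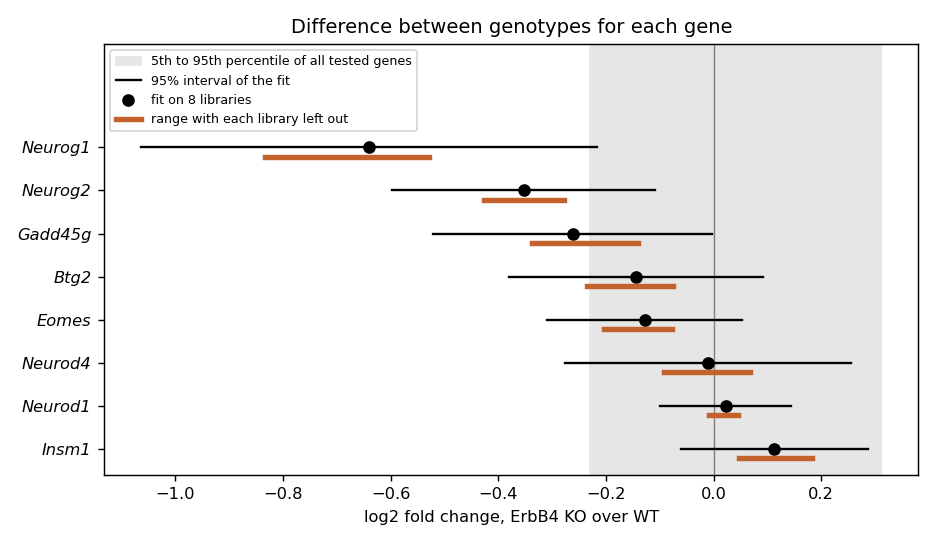
Log2 fold change of libraries labelled ErbB4 KO over WT for each gene (black points), its 95% interval in edgeR's fit (black lines) and its range with each of the 8 libraries left out in turn (orange lines). The grey band holds the 5th to 95th percentile of all 14696 tested genes, from -0.23 to 0.31, and Neurog1, Neurog2 and Gadd45g lie below it.

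Eomes (ENSMUSG00000032446, plus strand of chromosome 9, 118387330 to 118395250) encodes the T-box factor that defines intermediate progenitors. It had 286, 249, 278 and 293 CPM in WT replicates 1 to 4. In ErbB4 KO replicates 1 to 4 it had 226, 232, 265 and 290 CPM. ErbB4 KO replicates 1 and 2 lay below every WT library, and replicates 3 and 4 lay within the WT range. Eomes averaged 277 ± 19.0 CPM in WT and 253 ± 30.0 in KO-labelled libraries (n = 4 each). The log2 fold change was -0.13 with an SE of 0.083, a 95% interval from -0.31 to 0.054 and an adjusted p of 0.81, and the exact permutation p was 0.229. For Eomes the unadjusted p was 0.150 with all libraries and under 0.05 in 1 of the 19 alternative settings. Without ErbB4 KO replicates 1 and 2 the log2 fold change was 0.0044. Without ErbB4 KO replicate 4 it was -0.20 (unadjusted p = 0.0241), where 7.73% of all tested genes had an unadjusted p under 0.05. It was -0.21 both against WT replicate 4 alone and with Xist as a covariate. In whole tissue, fewer cells of a type and less RNA per cell cannot be told apart, for this gene and for the others.

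Btg2 (ENSMUSG00000020423, minus strand of chromosome 1, 135971747 to 135975697) encodes an antiproliferative protein expressed in progenitors that divide to give neurons. It lies on the chromosome of Erbb4, 66.8 Mb away from it. The gene had 89.0, 67.3, 84.0 and 87.0 CPM in WT replicates 1 to 4. In ErbB4 KO replicates 1 to 4 its values were 70.3, 63.0, 75.8 and 87.1 CPM. WT replicate 2 was the low library of its group, and the ranges overlapped over most of their width. Btg2 averaged 81.8 ± 9.90 CPM in WT and 74.0 ± 10.2 in KO-labelled libraries (n = 4 each). The log2 fold change was -0.14 with an SE of 0.11, a 95% interval from -0.38 to 0.091 and an adjusted p of 0.81, and it was -0.0068 without ErbB4 KO replicates 1 and 2. It was -0.24 without ErbB4 KO replicate 4 (unadjusted p = 0.0456) and -0.23 without WT replicate 2 (unadjusted p = 0.0406). In these settings 7.73% and 9.4% of all tested genes had an unadjusted p under 0.05. For Btg2 the unadjusted p was 0.206 with all libraries and under 0.05 in 2 of the 19 alternative settings. The log2 fold change was -0.23 against WT replicate 4 alone and -0.24 with Xist as a covariate (SE 0.17, unadjusted p = 0.192).

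The log2 fold changes of the remaining genes, Insm1, Neurod1 and Neurod4, ran from -0.011 to 0.11. Insm1 (ENSMUSG00000068154, plus strand of chromosome 2, 146047657 to 146050752, 1 exon), a zinc finger protein of newly formed basal progenitors and neurons, had 220, 192, 166 and 194 CPM in WT replicates 1 to 4. In ErbB4 KO replicates 1 to 4 it had 195, 208, 225 and 208 CPM. With averages of 193 ± 22.1 CPM in WT and 209 ± 12.3 in KO-labelled libraries (n = 4 each), it had the highest log2 fold change of the 8 genes, 0.11 with an SE of 0.079, a 95% interval from -0.061 to 0.29 and an adjusted p of 0.81. WT replicates 1 and 3 were its highest and lowest libraries among the WT and enclosed 3 of the 4 KO-labelled libraries. Its log2 fold change was 0.18 without WT replicate 1 (unadjusted p = 0.0126) and 0.047 without WT replicate 3. The unadjusted p of Insm1 was 0.182 with all libraries and under 0.05 in 1 of the 19 alternative settings. Without WT replicate 1, 5.93% of all tested genes had an unadjusted p under 0.05.

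Neurod1 (ENSMUSG00000034701, minus strand of chromosome 2, 79292678 to 79296908), a basic helix-loop-helix factor of late intermediate progenitors and young neurons, was the steadiest of the 8. It had 111, 104, 113 and 114 CPM in WT replicates 1 to 4. Its level in ErbB4 KO replicates 1 to 4 was 114, 106, 119 and 109 CPM. It averaged 110.3 ± 4.59 CPM in WT and 112 ± 5.51 in KO-labelled libraries (n = 4 each), and the log2 fold change was 0.022 with an SE of 0.056 and an adjusted p of 0.94. Its 95% interval, from -0.10 to 0.14, was the narrowest of the 8.

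Neurod4 (ENSMUSG00000048015, minus strand of chromosome 10, 129705209 to 129717296), a related factor, had 12.8, 10.6, 13.7 and 12.8 CPM in WT replicates 1 to 4, from 329 to 525 reads. In ErbB4 KO replicates 1 to 4 it had 11.4, 10.3, 14.4 and 13.5 CPM, from 359 to 563 reads. The lowest and the highest library were both KO-labelled. The averages were 12.5 ± 1.34 and 12.4 ± 1.88 CPM (n = 4 each). The log2 fold change was -0.011 with an SE of 0.12 and an adjusted p of 0.99, and its 95% interval, from -0.28 to 0.25, leaves room for changes of the size seen in Btg2 or Eomes.

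Levels can be compared between genes only per length. Divided by the length of all annotated exons, the mean levels in WT libraries were 91.2 RPKM (CPM per kilobase) for Neurog2, 66.6 for Eomes, 62.3 for Insm1, 50.1 for Gadd45g, 40.4 for Neurod1, 29.8 for Btg2, 6.03 for Neurog1 and 3.73 for Neurod4. Neurog2 was therefore the highest and its relative Neurog1 among the lowest. In this order Eomes and Insm1 overlapped in their WT libraries, as did Insm1 and Gadd45g, and the other neighbours did not. In libraries labelled ErbB4 KO, Neurog2 had 71.5 RPKM, Insm1 67.4 and Eomes 60.9, and their ranges overlapped from each gene to the next in the WT order. The lengths are those of the annotation, not of the transcripts present.

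**Figure D3:**
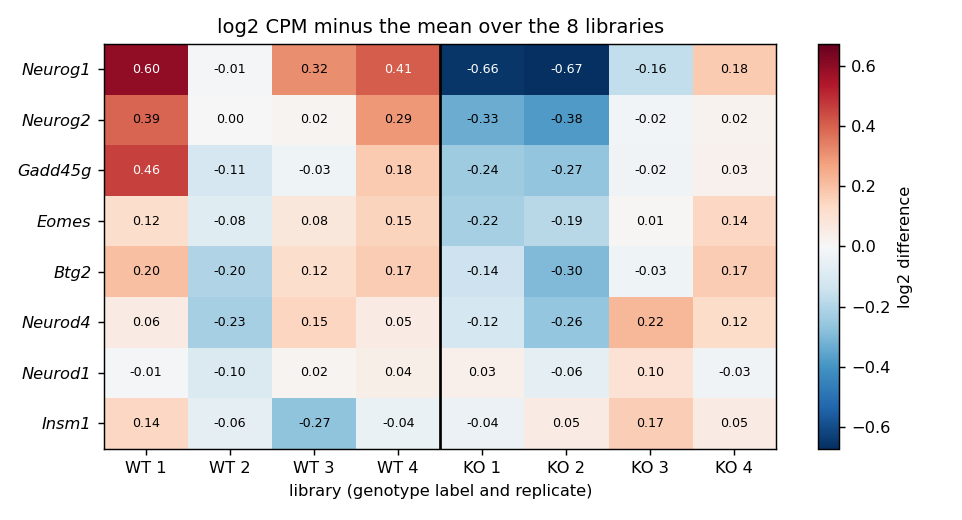
Log2 CPM of each gene minus its mean over the 8 libraries, with WT libraries left and libraries labelled ErbB4 KO right of the line. Red is above and blue below the mean. WT replicates 1 and 4 are above the mean for 7 of the 8 genes, and ErbB4 KO replicates 1 and 2 are below it for 7.

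Most of the 8 genes were high or low in the same libraries. WT replicates 1 and 4 and ErbB4 KO replicate 4 were above the mean of all libraries in 7 of the 8 genes. WT replicate 2 and ErbB4 KO replicates 1 and 2 were above it in 1. Averaged over the 8 genes, log2 CPM deviated from the mean of the libraries by 0.24, -0.097, 0.050 and 0.16 in WT replicates 1 to 4. The same deviation was -0.21, -0.26, 0.033 and 0.086 in ErbB4 KO replicates 1 to 4. Libraries with high and with low values thus occurred under both labels.

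Among Eomes, Neurog1, Neurog2, Btg2 and Gadd45g, a set named after the values were seen, the 10 pairwise Pearson correlations of log2 CPM over the 8 libraries ran from 0.80 to 0.95. With each genotype's mean removed they ran from 0.73 to 0.97. The highest over the 8 libraries was that of Neurog1 with Neurog2, at 0.95, followed by Neurog2 with Gadd45g, also at 0.95. The other 18 pairs ran from -0.11 to 0.79, and from 0.072 to 0.84 with the genotype means removed, so that the ranges then overlapped. Neurod4 had 0.84 with Btg2, 0.82 with Eomes and 0.81 with Neurog1 there. Neurod1 and Neurod4 went together at 0.74, whereas Insm1 had no correlation above 0.28 with any of the other 7 genes, and up to 0.74, with Gadd45g, once the genotype means were removed. These are descriptions over 8 libraries that share genotype, depth and any library effect.

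**Figure D4:**
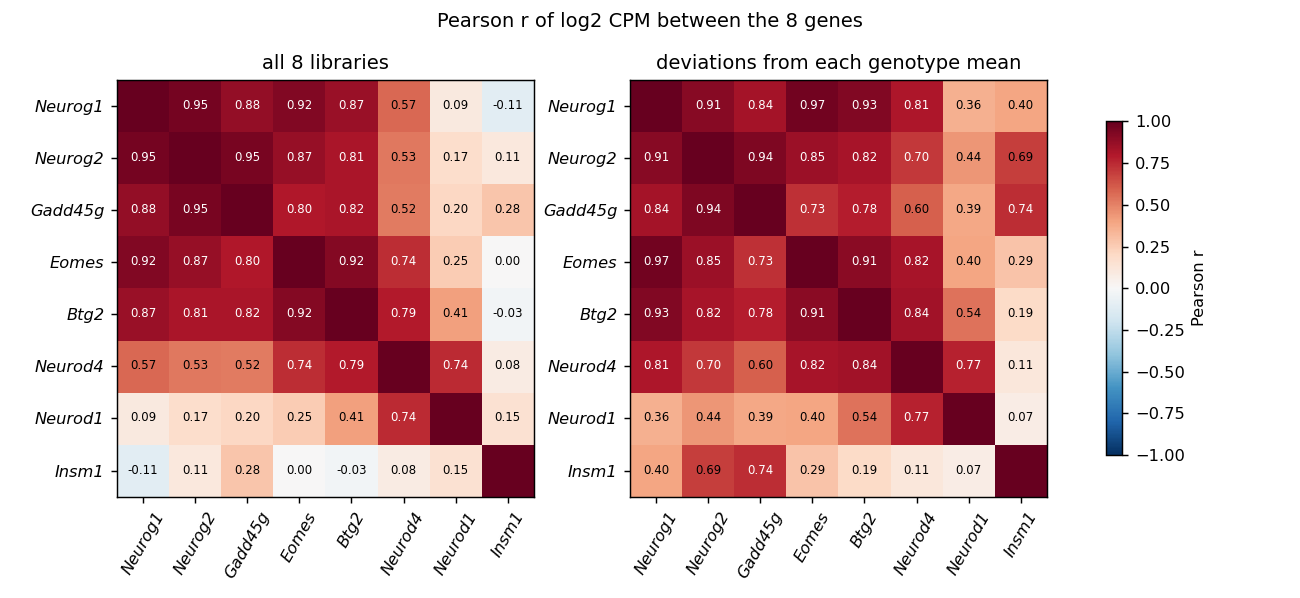
Pearson correlation of log2 CPM between the genes over the 8 libraries (left) and of the deviations from each genotype's mean (right), with red for positive and blue for negative values. Neurog1, Neurog2, Gadd45g, Eomes and Btg2 have values of 0.80 or more with each other on the left and 0.73 or more on the right, where Neurod4 reaches 0.84 with Btg2, and Insm1 has the lowest values on the left.

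Ratios of CPM between the genes were compared for all 28 pairs, because a ratio within a library does not depend on its scaling. In 4 pairs the genotypes did not overlap, and each of these had Neurog1 or Neurog2 on one side. The ratio of Neurog2 to Insm1 was 0.934 to 1.12 in WT libraries and 0.660 to 0.873 in those labelled ErbB4 KO. The ratio of Eomes to Neurog1 was 23.9 to 31.9 in WT and 32.6 to 47.2 in KO-labelled libraries. Neurog1 relative to Btg2 was 0.116 to 0.134 against 0.0707 to 0.102, and relative to Neurod4 it was 0.716 to 0.931 against 0.437 to 0.660. Each had an exact two-sided permutation p of 0.0286, the smallest possible, and a Benjamini-Hochberg adjusted value of 0.16 over the 28 pairs. Of the ratios of the other 14695 tested genes to Neurog1, 8.41% did not overlap between the genotypes, and 3 of its 7 pairs here did not. Of the ratios of the other tested genes to Neurog2, 12.7% did not overlap, and 1 of its 7 pairs here did not. The background ratios were taken from counts, with 0.5 added to the other gene.

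Other genes of the neurogenic sequence were taken from a list of 20 that holds Notch ligands, neurogenic factors and their targets. All 20 were tested and 0 were called by edgeR, DESeq2 or limma-voom at an adjusted p of 0.05. At an unadjusted p under 0.05, 4 were lower and 1 was higher, where 2.52% and 3% of all tested genes were. The log2 fold change was below 0 in 16 of the 20 (median -0.10), against 50.8% of all tested genes. It was below 0 in 12 without ErbB4 KO replicates 1 and 2. The Notch ligand Dll1, a direct target of proneural factors, had 66.9 ± 2.28 CPM in WT and 60.6 ± 5.28 in KO-labelled libraries (n = 4 each), and its log2 fold change was -0.14 with an SE of 0.069 and an adjusted p of 0.81. Dll3 had -0.14 (SE 0.10) and Hes6, a Hes-related factor that favours neurogenesis, had -0.19 (SE 0.093). Without WT replicate 1 they had -0.044 and -0.081.

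The 4 lower genes were Rnd2, a small GTPase downstream of Neurog2 in migrating neurons, Nhlh1, a helix-loop-helix factor of newborn neurons, Tfap2c, an AP-2 factor of basal progenitors, and Ppp1r17. Rnd2 had 137 ± 22.2 CPM in WT and 109 ± 17.6 in KO-labelled libraries (n = 4 each), and its log2 fold change was -0.34 with an SE of 0.13 and an adjusted p of 0.81. Nhlh1 had -0.29 (SE 0.13), Tfap2c -0.22 (SE 0.095) and Ppp1r17, at 1.58 to 2.25 mean CPM, -0.52 (SE 0.21). The higher gene was Bhlhe22, a factor of postmitotic cortical neurons, with 226 ± 23.1 CPM in WT and 267 ± 20.7 in KO-labelled libraries (n = 4 each), a log2 fold change of 0.24 with an SE of 0.080 and an adjusted p of 0.81. Without ErbB4 KO replicates 1 and 2, where 2.18% of all tested genes had an unadjusted p under 0.05, 0 of these 5 genes did. There the log2 fold change was -0.17 for Rnd2, -0.070 for Nhlh1, -0.062 for Tfap2c and -0.22 for Ppp1r17, and it was 0.21 for Bhlhe22. Of the factors of the neurons that arise from these progenitors, Neurod2 and Neurod6 lay near 0, at -0.027 (SE 0.087) and -0.029 (SE 0.085). Tbr1 had -0.11 (SE 0.067), with -0.058 without WT replicate 1 and -0.15 without WT replicate 3.

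**Figure D5:**
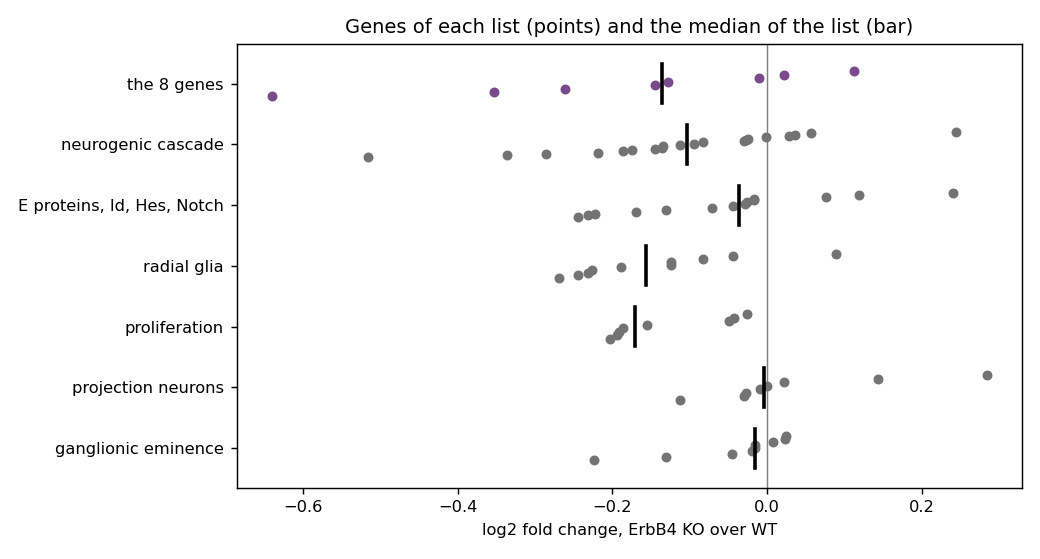
Log2 fold change of libraries labelled ErbB4 KO over WT for the 8 genes (purple) and for the genes of other lists (grey), with the median of each list as a black bar. The medians of the 8 genes, the neurogenic sequence, radial glia and proliferation lie from -0.17 to -0.10, and those of projection neurons and ganglionic eminence lie near 0. No gene shown passed an adjusted p of 0.05.

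The partners and repressors of proneural factors were 14 genes that encode E proteins, Id, Hes and Hey proteins, Notch receptors and their effector Rbpj. Their log2 fold changes had a median of -0.036, with 11 below 0, where 50.8% of all tested genes were, and 0 were called. They ran from -0.24 in Hes1, a Notch target that represses proneural genes, to 0.24 in Id3, which sequesters E proteins. At an unadjusted p under 0.05 there were 2, both lower, against 2.52% of all tested genes. The radial glial genes had a median of -0.16, with 9 of 10 below 0, against 50.8% of all tested genes, and 4 at an unadjusted p under 0.05, all lower, against 2.52%. Without ErbB4 KO replicates 1 and 2, 8 of the 10 were below 0 and 0 had an unadjusted p under 0.05. The number at such a p was 1 without ErbB4 KO replicate 1 and 1 without ErbB4 KO replicate 2. It was 2 without WT replicate 4, 7 without ErbB4 KO replicate 4 and 1 with Xist as a covariate. The share of all tested genes at such a p moved too. It was 3.63% without ErbB4 KO replicate 1, 2.9% without ErbB4 KO replicate 2 and 4.95% without WT replicate 4. It was 7.73% without ErbB4 KO replicate 4, 1.68% with Xist as a covariate and 2.18% without ErbB4 KO replicates 1 and 2. Pax6, which acts upstream of Neurog2, had 102 ± 8.51 CPM in WT and 84.4 ± 8.22 in KO-labelled libraries (n = 4 each), and its log2 fold change was -0.27 with an SE of 0.081 and an adjusted p of 0.81. The proliferation genes had a median of -0.17, with 8 of 8 below 0, against 50.8% of all tested genes. At an unadjusted p under 0.05 there was 1, which was lower, against 2.52% of all tested genes. Without ErbB4 KO replicates 1 and 2 the counts below 0 and at such a p were 6 and 0. Without ErbB4 KO replicate 4 they were 8 and 5, and without WT replicate 3 they were 5 and 0. Of all tested genes, 2.18%, 7.73% and 5.78% were at such a p in these settings, in this order. Projection neuron genes had a median of -0.0042, with 4 of 8 below 0.

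The means of some of these lists followed that of the 8 genes over the libraries, and others did not. The correlation of the list mean with that of the 8 genes was 0.97 for the neurogenic sequence (20 genes), 0.90 for the partners and repressors, 0.89 for radial glia, 0.61 for proliferation and 0.12 for projection neurons. For the markers of other cells it was 0.63 for red blood cells, 0.14 for microglia, 0.055 for meninges, -0.31 for Cajal-Retzius cells, -0.43 for endothelium and -0.51 for ganglionic eminence, and it was 0.54 for the relatives of Btg2 and Gadd45g with the stress genes. The summed CPM of the radial glial genes was 1969 to 2522 in WT and 1952 to 2146 in KO-labelled libraries. Of all genes with a mean of at least 5 CPM, the 8 outside the set whose log2 CPM followed the mean of the 8 genes most closely were Dusp14, A930024E05Rik, Tfap2c, Rpa1, Sstr3, Rnd2, Bcl7a and Aldoc, at r from 0.96 to 0.98 over 8 libraries and from 0.95 to 0.97 within genotypes. Rpa1 encodes a subunit of the single-strand binding complex of DNA replication. Their log2 fold changes ran from -0.34 in Rnd2 to -0.055 in Bcl7a, with adjusted p from 0.81 to 0.83.

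The families of Btg2 and Gadd45g gave no called gene either. Btg1 had a log2 fold change of 0.0061 (SE 0.066), Tob1 of -0.061 (SE 0.12) and Tob2 of -0.13 (SE 0.11). Btg3 had no counted read in any library, which does not show that the gene was silent, and the cause was not tested. Gadd45a, at 3.63 ± 0.488 CPM in WT and 3.10 ± 0.407 in KO-labelled libraries (n = 4 each), had -0.23 (SE 0.15), and Gadd45b had -0.21 (SE 0.24). Both belong with Gadd45g to the genes induced by stress. The 12 tested genes of the list of these relatives, p53 targets and immediate early genes had log2 fold changes with a median of -0.045. Of the 12, 1 had an unadjusted p under 0.05, against 5.53% of all tested genes.

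Markers of other cells that the tissue could hold were measured beside these results, and their part in them was not tested. The ganglionic eminence genes, among them Gsx2 and Lhx6, summed to 513 to 694 CPM in WT and 506 to 704 in KO-labelled libraries. Of these, 0 of 9 had an unadjusted p under 0.05, against 5.53% of all tested genes. Cajal-Retzius genes summed to 178 to 275 against 244 to 291 CPM, and endothelial genes to 107 to 112 against 106 to 114. Microglial genes summed to 30.6 to 36.9 against 32.5 to 37.5 CPM, and 0 genes of these 3 lists had an unadjusted p under 0.05. Meningeal genes were low, at 8.47 to 9.92 against 8.70 to 14.2 CPM, with Lum at 1 to 4 reads in WT and 1 to 28 in KO-labelled libraries. Red blood cell genes summed to 31.7 to 56.1 CPM in WT and 20.7 to 34.8 in KO-labelled libraries. Against 2.52% of all tested genes that were lower at an unadjusted p under 0.05, 2 of the 4 were. These were the embryonic globin genes Hbb-y and Hba-x, which had log2 fold changes of -1.72 with an SE of 0.45 and -1.23 with an SE of 0.31, and neither was called (adjusted p = 0.81 and 0.74).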

How the data were processed

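RNA of dorsal cortex was sequenced from 8 samples as single-end reads of 50 nucleotides. The authors used HISAT to map the reads to mm9, and HTSeq-count to count those that fell on each gene (versions, annotation and counting mode not given in the sources used here). The deposited files hold raw counts per gene symbol. The libraries were not stranded, so overlapping genes cannot be told apart. The authors' table of their own DESeq2 comparison holds fold changes and p-values and was not used.

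Genotypes came from the labels. Counts were filtered (edgeR 4.0.16 filterByExpr, minimum count 10, minimum total 15), scaled by TMM and tested by quasi-likelihood (glmQLFTest), and p-values were adjusted over the 14696 genes after Benjamini and Hochberg. All p-values given as unadjusted or adjusted are from this test unless another is named. Log2 CPM has a prior count of 2. Whether the samples came from separate litters is not given, so p-values measure the spread between these samples. Library pairs differed by more than sampling noise. The deviations of same-numbered samples correlated at 0.024 to 0.13, and the numbers were not used as pairs in the main fit. Alternatives were DESeq2 1.42.0, limma-voom 3.58.1, other scalings and filters, Xist as a covariate, a replicate block and libraries left out. Steps were tested on simulated data. The genes, lists and tests were chosen with earlier results of these data known. Named are the 8 genes, genes of the 20-gene list with an unadjusted p under 0.05 plus Dll1, Dll3, Hes6, Neurod2, Neurod6 and Tbr1, the lowest and highest of other lists, the relatives of Btg2 and Gadd45g, and the 8 genes most like them. Some further list genes, such as Pax6 and Lum, and the set of 5 correlated genes were chosen after their values were seen. Positions and lengths are from GENCODE vM1 (NCBIM37).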

Additional observations from a re-analysis of the deposited data

Results flagged for a closer look

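Across 38 groups of 4 libraries, 2 held a library far from the other 3, where chance gives about 1 in 20. Ppp1r17 had 2.68 CPM in WT replicate 1, the highest of its group and apart from the others. Dll1 had 63.5 CPM in WT replicate 2, the lowest of its group.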

How the results depend on the processing

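In all 19 alternative settings 0 of the 8 genes passed an adjusted p of 0.05. The number of genes called among all tested, 4 in the edgeR fit, was 23 with DESeq2, 1 with relative log expression scaling, 1 with upper-quartile scaling and 1 with Xist as a covariate. It was 2 after the length correction, 1 without WT replicates 1, 2 and 3, 1 without ErbB4 KO replicates 1 and 2, and 1 to 13 with 1 library left out, the 13 without WT replicate 4. Of the 8 genes, 3 had an unadjusted p under 0.05, against 0 without ErbB4 KO replicates 1 and 2 and 2 to 5 with 1 library left out, the 5 without ErbB4 KO replicate 4. The share of all tested genes under this p was 5.53%, against 2.18% without ErbB4 KO replicates 1 and 2, 7.73% without ErbB4 KO replicate 4 and 2.9% to 9.4% over the fits with 1 library left out. The number of gene pairs whose ratios did not overlap, 4, became 4 to 14 with 1 library left out, where fewer libraries make an overlap less likely (7 without WT replicate 2, 9 without WT replicate 3, 14 without ErbB4 KO replicate 4).

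Some signs changed, and the cause was not tested. Eomes, at -0.13 with all libraries, had 0.0044, and Neurod4 had 0.16, without ErbB4 KO replicates 1 and 2, and Neurod6 had 0.054 there and 0.0092 after the length correction. Neurod1 had -0.034 with Xist as a covariate and -0.028 without WT replicates 1, 2 and 3. With 1 library left out, Neurod1 ran from -0.0078 to 0.046, Neurod4 from -0.092 to 0.067, Neurod2 from -0.11 to 0.058 and Neurod6 from -0.089 to 0.029.

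With the replicate number as a block, 1 gene was called, Neurog1 had -0.66 (adjusted p = 0.58) and Neurog2 -0.35 (adjusted p = 0.66). The numbers are not known to pair the samples. The deviations of same-numbered samples correlated at 0.024 to 0.13, and those of differently numbered samples at -0.19 to 0.15. For ErbB4 KO replicates 1, 2 and 3 the same-numbered WT library correlated best, and for replicate 4 it was WT replicate 3 (0.15). With the block the log2 fold change of Btg2 was -0.15 (SE 0.067, unadjusted p = 0.0565). There 6.97% of all tested genes had an unadjusted p under 0.05. Whether the numbers pair the samples was not tested. The length correction and the settings that leave out several libraries were chosen after seeing the data. With 171 to 376 reads for Neurog1 and 329 to 563 for Neurod4, counting error is larger for these genes than for the other 6, and the 95% intervals bound what 4 libraries a group can show.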
